A study of Mus musculus and Acomys cahirinus with 84 samples.

Results

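Cultures of the spiny mouse *Acomys cahirinus*, labelled primary skin fibroblasts, were compared 12 d after 20 Gy of gamma irradiation with cultures that received no dose. The members were chosen by their labels: 4 libraries at 20 Gy and 4 plain untreated libraries, 8 of the 84 libraries of the series. The untreated passaged cultures of the same time point were kept apart and are quoted only as levels. All 8 libraries were made from polyA RNA as stranded mRNA libraries, and both groups carry replicate numbers 1 to 4. The labels do not say that the libraries came from separate animals or cultures, so p-values measure only the spread between these samples, which may be technical. The labels give no genotype, strain, sex or age for the animals. For comparison, 4 further *A. cahirinus* libraries at 10 Gy and 12 d were used, with 8 libraries each of C56BL6 mice and of wild mice (4 at 20 Gy and 4 untreated, all at 12 d).

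Ionising radiation breaks DNA. The transcription factor p53 is stabilised in response and switches on Cdkn1a, which blocks the cyclin-dependent kinases that drive division. Cells with breaks that stay unrepaired can leave the cell cycle for good, a state called senescence. It is known in skin fibroblasts for loss of the nuclear lamina protein lamin B1, a rise of the inhibitors encoded by Cdkn1a and Cdkn2a, and secretion of cytokines, growth factors and proteases. The spiny mouse is known for regenerating skin with little scarring.

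Total counts were 28.39 to 34.54 M in the untreated libraries and 31.68 to 35.28 M at 20 Gy. Genes with a count numbered 14921 to 15222 in the untreated libraries and 15856 to 16209 at 20 Gy, so the irradiated libraries all showed more genes at similar depth. Levels below are CPM, counts scaled to a common library size. The limit set by 3 counts was 0.085 to 0.106 CPM, for counting error only. Levels of different genes are not compared, since CPM does not correct for gene length.

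The labelled cell type was checked against marker lists. Of 15 fibroblast markers 14 averaged at least 1 CPM, and their sum was 39310 to 47906 CPM in untreated and 28120 to 43905 CPM in irradiated libraries. Col1a2, a chain of type I collagen, lay at 14431, 14504, 13287 and 14674 CPM in untreated replicates 1 to 4. Skeletal muscle genes were also abundant in these cultures, which goes against the label taken alone. Myog, the transcription factor of muscle differentiation, lay at 686.9, 419.3, 708.4 and 652.5 CPM untreated and at 1037, 230, 1028 and 962 CPM at 20 Gy. Of 13 muscle markers, 12 averaged at least 1 CPM. Their sum reached 6598 to 14168 CPM untreated and 3374 to 19164 CPM at 20 Gy. In the mouse cultures at 12 d, scaled separately, the same sum lay at 9.61 to 21.4 CPM in C56BL6 and 4.85 to 26.2 CPM in wild mice. Leukocyte markers summed to 4.67 to 10.4 CPM over the 8 libraries, with Cd3e at 0 in all of them. Keratinocyte or epithelial markers summed to 17.7 to 34.3 CPM, with Ivl at 0 in all 8 libraries, and adipocyte markers to 9.15 to 44.8 CPM. The endothelial sum was higher at 20 Gy, 157 to 955 CPM against 45.9 to 267 CPM. It came mainly from the receptor gene Flt1, while 8 of the 11 endothelial markers averaged under 1 CPM. The Schwann cell or melanocyte sum, 1506 to 3441 CPM, was dominated by Ncam1, and Tyr was at 0 throughout. The mural cell sum was 859 to 1695 CPM untreated and 621 to 1932 CPM at 20 Gy, and cartilage or bone markers summed to 195 to 404 CPM. In bulk RNA, fewer cells of a type and less RNA per cell cannot be told apart.

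Replicate 2 stood apart in both groups. Its counts differed from those of the other replicates by a chi-square of 122 to 147 per gene in untreated and 267 to 365 per gene in irradiated libraries, against 17.5 to 38.3 among replicates 1, 3 and 4. It held the lowest muscle marker sum in each group, at 6598 and 3374 CPM, while the other irradiated libraries lay at 18047 to 19164 CPM. Its mural cell sums, 859 and 621 CPM, were lowest as well. Counts of changed genes are therefore also given without both libraries of replicate 2. The part that muscle cells or their RNA have in the results was not tested.

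**Figure D1:**
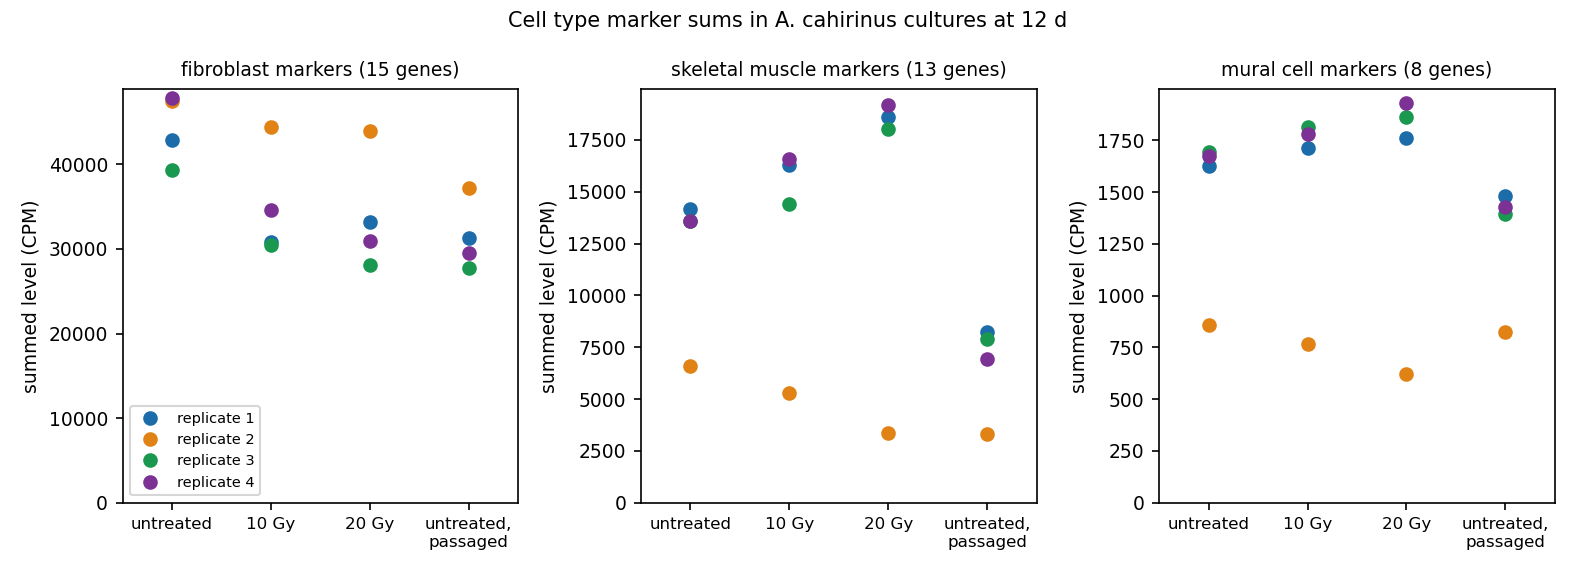
Summed CPM of fibroblast, skeletal muscle and mural cell markers (y axes, linear) in each *A. cahirinus* library at 12 d, by group (x axis), with a point per library coloured by replicate number. Muscle sums lie between 3374 and 19164 CPM in the untreated and 20 Gy libraries, and replicate 2 is lowest in every group for muscle and mural markers.

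The first comparison asked which genes differed between 20 Gy and untreated at 12 d. By edgeR's quasi-likelihood test with Benjamini-Hochberg adjustment, 4287 of 13462 genes passed an adjusted p of 0.05, which is 31.8%. Of these, 1857 were higher (13.8% of all tested) and 2430 lower (18.1%). This main fit did not pair the libraries. Counts and p-values below come from fits without pairing unless pairing is named. The median log2 change over all genes tested was 0.00. Among called genes, 784 were at least 2-fold higher and 634 at least 2-fold lower, and 92 and 60 moved at least 8-fold. In 4240 of the 4287 called genes all 4 pairs of same-numbered libraries moved in the direction of the fit. When same-numbered libraries were paired, 6623 genes passed (49.2%), 3159 higher (23.5%) and 3464 lower (25.7%). Without replicate 2, 6678 of 13529 passed (49.4%), 3274 higher (24.2%) and 3404 lower (25.2%), and these held 4200 of the 4287 genes, all in the same direction.

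Genes of cell division were lower in all 4 irradiated libraries. Of 61 tested genes of mitosis, the kinetochore and chromosome condensation, 56 were lower (91.8%), 0 higher and 42 fell at least 4-fold, with a median log2 change of -2.54. Of all genes tested 18.1% were lower and 13.8% higher. Only Birc5 of the list's genes in the table missed the expression filter. The summed level of the list was 1180, 1303, 1529 and 1539 CPM untreated and 397, 434, 440 and 400 CPM at 20 Gy, so all 4 irradiated libraries lay below all 4 untreated ones. Plk1, a kinase that drives entry into mitosis, lay at 14.7, 17.6, 20.4 and 21.4 CPM untreated and at 0.574, 0.470, 1.201 and 0.854 CPM at 20 Gy. Its log2 change was -4.56 ± 0.30 (SE; edgeR adjusted p = 8.75e-05), and the groups did not overlap. Kif23 and Kif11, kinesin motors of the dividing spindle, fell by 4.52 and 4.41 on the log2 scale, Kif2c, a kinesin that takes microtubules apart, by 4.57, and Depdc1a by 4.58. Cdc20, which activates the complex that starts anaphase, was at 28.2 ± 5.07 CPM (SD, n = 4) untreated and 1.41 ± 0.443 CPM (SD, n = 4) at 20 Gy. The proliferation antigen gene Mki67 lay at 49.1, 52.9, 62.1 and 70.0 CPM untreated and at 3.60, 3.35, 6.61 and 3.87 CPM at 20 Gy. Its log2 change was -3.74 ± 0.25 (SE; edgeR adjusted p = 8.75e-05). Top2a, the topoisomerase that untangles sister chromatids, changed by -3.24 ± 0.38 (SE; edgeR adjusted p = 0.00073).

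The promoters of 4 division genes, of Cdc6, a replication licensing factor, and of Mcm5, a subunit of the replicative helicase, are shown because mitotic and replication genes are known to be controlled through different short elements. These are the house mouse sequences of RefSeq (GRCm38.p6), not those of the spiny mouse, from 160 bases before the transcription start to 20 after it. Capitals mark the CHR element (TTTGAA or TTCGAA), the CCAAT box and the E2F motif (GGCGGGAA or GCGGGAAA), searched on both strands. The windows lie at chr9:61946780-61946959 (minus strand) for Kif23, chr9:70421535-70421714 (minus) for Ccnb2, chr4:118437324-118437503 (minus) for Cdc20, chr19:37376222-37376401 (plus) for Kif11, chr11:98907991-98908170 (plus) for Cdc6 and chr8:75109349-75109528 (plus) for Mcm5.
Kif23: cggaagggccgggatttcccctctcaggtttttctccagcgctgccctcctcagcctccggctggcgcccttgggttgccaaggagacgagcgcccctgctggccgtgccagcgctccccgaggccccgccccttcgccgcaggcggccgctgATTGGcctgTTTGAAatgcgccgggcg
Ccnb2: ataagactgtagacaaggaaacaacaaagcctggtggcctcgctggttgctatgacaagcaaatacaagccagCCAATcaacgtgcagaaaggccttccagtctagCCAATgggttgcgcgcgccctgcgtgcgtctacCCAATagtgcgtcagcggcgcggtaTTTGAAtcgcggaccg
Cdc20: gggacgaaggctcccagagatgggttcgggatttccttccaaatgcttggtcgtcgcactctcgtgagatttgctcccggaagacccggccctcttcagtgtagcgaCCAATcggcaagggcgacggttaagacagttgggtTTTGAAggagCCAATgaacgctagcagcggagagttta
Kif11: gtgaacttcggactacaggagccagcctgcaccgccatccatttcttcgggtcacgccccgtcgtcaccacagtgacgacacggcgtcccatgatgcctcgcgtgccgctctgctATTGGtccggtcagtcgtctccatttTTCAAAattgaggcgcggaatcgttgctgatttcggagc
Cdc6: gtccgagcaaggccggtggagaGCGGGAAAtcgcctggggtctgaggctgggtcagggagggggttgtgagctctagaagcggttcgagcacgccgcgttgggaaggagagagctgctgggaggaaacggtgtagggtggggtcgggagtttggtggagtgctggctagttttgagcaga
Mcm5: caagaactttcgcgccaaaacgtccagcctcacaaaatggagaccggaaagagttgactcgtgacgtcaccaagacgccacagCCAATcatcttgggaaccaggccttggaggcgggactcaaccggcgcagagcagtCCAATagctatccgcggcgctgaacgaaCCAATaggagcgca
The 4 mitotic genes each held 1 CHR element within these windows, and each held at least 1 CCAAT box, which was on the opposite strand in Kif23 and Kif11. Cdc6 held an E2F motif and neither of the others, while Mcm5 held 3 CCAAT boxes and neither a CHR element nor this E2F motif. The 2 replication genes shown thus shared none of the motifs as spelled here. Other forms of the E2F site were not searched for, so this does not show that they share no element. Over the longer window of 250 bases before to 50 after the start, a CHR element was in 40 of the 50 called mitotic genes with a promoter entry, 80.0%, against 19.4% of 27025 promoters. A CCAAT box was in 72.0% of them, against 37.9%. Among called replication genes the shares were 20.6% for CHR, 55.9% for CCAAT and 29.4% for E2F, against 2.81% of all promoters for E2F. The list of called homologous recombination genes had E2F in 29.4% and CHR in 17.6%. A p53 half-site was in 31.2% of the 16 called p53 targets with an entry and in 8.37% of all promoters. These shares describe letters in mouse promoters and are not evidence of binding.

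Among 30 tested cyclins, cyclin-dependent kinases and cell-cycle transcription factors, 16 were lower (53.3%) and 3 higher (10%), beside 18.1% and 13.8% of all genes. Ccna2, the cyclin of S phase and early mitosis, lay at 20.4, 23.01, 29.7 and 28.3 CPM untreated and at 0.957, 1.316, 1.501 and 1.451 CPM at 20 Gy, a log2 change of -4.27 ± 0.20 (SE; edgeR adjusted p = 4.58e-05). Ccnb2, a mitotic cyclin, changed by -3.99. The factors E2f8 and Mybl2, which regulate S phase and mitotic genes, changed by -4.11 and -3.81. The 3 that rose act in G1: Ccnd1 by 1.51 ± 0.35 (SE; edgeR adjusted p = 0.0129), Ccnd2 by 1.08 ± 0.27 (SE; edgeR adjusted p = 0.0175) and Cdk6 by 0.53 ± 0.15 (SE; edgeR adjusted p = 0.0266). Ccnd1 lay at 311, 631, 213 and 224 CPM untreated and at 983, 1209, 861 and 855 CPM at 20 Gy, without overlap. Ccnd2 did not pass without untreated replicate 1 (adjusted p = 0.063), and Cdk6 did not pass without untreated replicate 1, 3 or 4 or irradiated replicate 4 (adjusted p up to 0.0694).

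Of 50 tested genes of DNA replication and nucleotide supply, 41 were lower (82%) and 0 higher, beside 18.1% and 13.8% of all genes. Their median log2 change was -1.06, and 49 had a value below 0. Cdc6, which loads the replicative helicase, lay at 5.24, 4.45, 5.48 and 6.39 CPM untreated and at 0.223, 0.219, 0.519 and 0.341 CPM at 20 Gy, a log2 change of -4.01 ± 0.30 (SE; edgeR adjusted p = 0.000163). Mcm5 changed by -2.54 ± 0.21 (SE; edgeR adjusted p = 0.000232). Uhrf1, which keeps DNA methylation through replication, changed by -2.93, Clspn, an adaptor of the replication checkpoint, by -2.79 and Tk1, thymidine kinase, by -2.72. The homologous recombination and Fanconi list, whose products repair broken and crosslinked DNA, had 22 of 30 genes lower and 0 higher, with a median of -1.04. Brca1 lay at 8.52, 8.81, 12.25 and 12.95 CPM untreated and at 1.31, 1.57, 1.23 and 1.31 CPM at 20 Gy, a log2 change of -2.97 ± 0.19 (SE; edgeR adjusted p = 8.75e-05). Dna2, Fanci and Bard1 changed by -3.26, -2.83 and -2.46.

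Genes of damage signalling and end joining leaned lower. Of 23 tested 9 were lower (39.1%) and 1 higher (4.35%), beside 18.1% and 13.8% of all genes. The median log2 change was -0.32, and 19 had a value below 0. Pairing gave 13 lower and 2 higher, beside 25.7% and 23.5% of all genes. The kinase gene Chek1, which relays stalled replication, changed by -1.24 ± 0.23 (SE; edgeR adjusted p = 0.00539), and Atr and Topbp1, which act above it, by -0.85 each. The gene of p53 itself, Trp53, lay at 109.5, 101.8, 109.4 and 113.4 CPM untreated and at 61.9, 62.1, 65.5 and 77.9 CPM at 20 Gy. Its log2 change was -0.69 ± 0.09 (SE; edgeR adjusted p = 0.00127), and the groups did not overlap. Rnf8, a ubiquitin ligase at breaks, rose by 0.46.

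Many targets of p53 were higher. Of 37 tested targets 20 were higher (54.1%, beside 13.8% of all genes) and 2 lower, with a median log2 change of 0.53, and Perp missed the filter. Cdkn1a lay at 976, 675, 862 and 683 CPM untreated and at 2429, 1554, 2122 and 2082 CPM at 20 Gy. Its log2 change was 1.36 ± 0.18 (SE; edgeR adjusted p = 0.00123), and every irradiated library lay above every untreated one. Mdm2, whose product degrades p53, lay at 107, 124, 90.7 and 89.6 CPM untreated and at 240, 352, 204.8 and 204.5 CPM at 20 Gy, a change of 1.29 ± 0.20 (SE; edgeR adjusted p = 0.00235). Ccng1, a p53-induced cyclin, changed by 1.69 ± 0.26 (SE; edgeR adjusted p = 0.00238), and the ectodysplasin receptor gene Eda2r by 1.83 ± 0.27 (SE; edgeR adjusted p = 0.00178). The largest rise in the list was that of Pmaip1, which encodes the death inducer Noxa. It lay at 9.03, 3.59, 6.95 and 7.41 CPM untreated and at 55.2, 23.5, 39.4 and 30.9 CPM at 20 Gy, a log2 change of 2.47 ± 0.34 (SE; edgeR adjusted p = 0.00139). The 2 lower members were Ddb2, a sensor of ultraviolet lesions, at -0.64, and Fdxr, a mitochondrial reductase, at -0.85. Fdxr did not pass without untreated replicate 1 or 3 (adjusted p up to 0.0716). Gdf15, a stress cytokine on the same list, lay at 3.42, 4.004, 3.14 and 3.91 CPM untreated and at 1.75, 6.80, 2.24 and 3.30 CPM at 20 Gy. These ranges overlap, the log2 change was -0.04 ± 0.40 (SE; edgeR adjusted p = 0.956), and its sign differed between settings.

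The inhibitors of cyclin-dependent kinases split. Of 11 tested genes of the inhibitor and RB family list, 4 were higher (36.4%) and 5 lower (45.5%), beside 13.8% and 18.1% of all genes. Cdkn2a, which encodes p16 and p19 ARF, lay at 50.4, 86.9, 34.1 and 49.97 CPM untreated and at 130, 152, 87.9 and 152 CPM at 20 Gy. Its log2 change was 1.24 ± 0.29 (SE; edgeR adjusted p = 0.0135), and 0.0502 without untreated replicate 1. Its lowest irradiated library exceeded the highest untreated one by about 1 CPM, and each pair rose. Cdkn2b, the neighbouring p15 gene, changed by 1.0 ± 0.22 (SE; edgeR adjusted p = 0.0102). The RB relative Rbl2 rose by 0.44 (adjusted p up to 0.0632 without untreated replicate 1 or 3 or irradiated replicate 1), while Rbl1, itself an E2F target, fell by 1.58 on the log2 scale. Cdkn1b, Cdkn2c and Cdkn3 fell by 0.81, 0.76 and 1.35. Lmnb1, which encodes lamin B1, lay at 45.6, 40.9, 59.1 and 53.7 CPM untreated and at 4.82, 4.14, 4.83 and 5.43 CPM at 20 Gy. Its log2 change of -3.37 ± 0.15 (SE; edgeR adjusted p = 4.58e-05) was the only one past 4-fold among 18 tested genes of lamins, envelope and HMGB proteins. Of the 18 genes 7 were lower (38.9%) and 1 higher (5.56%). Lmnb2 changed by -1.59, and the chromatin proteins Hmgb2 and Hmga1 by -1.95 and -1.48. Hmga2 was the 1 that rose, by 1.17 ± 0.17 (SE; edgeR adjusted p = 0.00176).

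**Figure D2:**
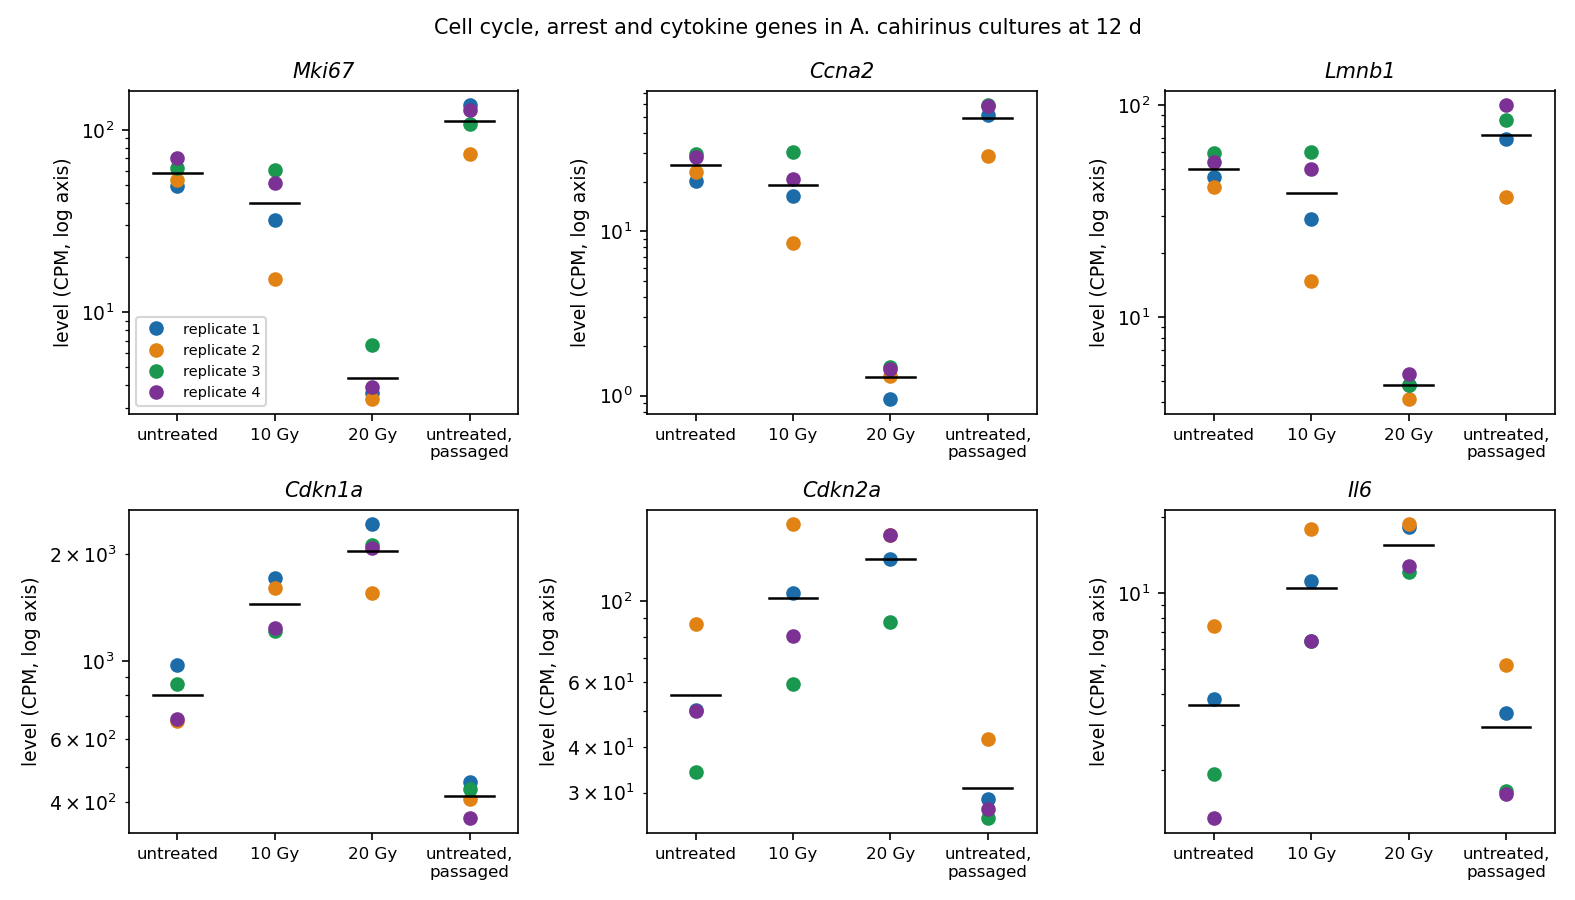
Level in CPM (y axes, log scale) of 6 genes in each *A. cahirinus* library at 12 d, by group (x axis); points are libraries coloured by replicate number and black lines are group means. At 20 Gy, Mki67, Ccna2 and Lmnb1 lie below and Cdkn1a, Cdkn2a and Il6 above all untreated libraries, and the 10 Gy libraries of the first 3 genes reach the untreated range.

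Secreted signals rose in part. Of 36 listed senescence-associated cytokines and chemokines 23 passed the expression filter, so the list's count covers its expressed members only: 12 were higher (52.2%) and 1 lower (4.35%), with a median log2 change of 1.02. Of all genes tested 13.8% were higher and 18.1% lower. Among the 13 that were not tested were Il1a, Il1b, Tnf and Cxcl10. Il6 lay at 3.798, 7.39, 1.92 and 1.28 CPM untreated and at 18.3, 18.7, 12.2 and 12.8 CPM at 20 Gy, a log2 change of 2.11 ± 0.50 (SE; edgeR adjusted p = 0.014). Ccl2, which attracts monocytes, lay at 20.9, 36.1, 14.8 and 15.4 CPM untreated and at 127, 220, 93.4 and 116 CPM at 20 Gy, a change of 2.68 ± 0.37 (SE; edgeR adjusted p = 0.00143). Neither gene overlapped between groups. The adhesion molecule Icam1 changed by 1.91 ± 0.52 (SE; edgeR adjusted p = 0.0237), but untreated replicate 2, at 342 CPM, lay above irradiated replicate 4, at 298 CPM. Icam1 did not pass without any 1 of untreated replicates 1, 3 and 4 and irradiated replicates 1 and 3 (adjusted p up to 0.0766). The 1 lower gene was Mif, at -0.43, which passed only with all 8 libraries or without irradiated replicate 2 (adjusted p up to 0.136 otherwise).

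Of 48 tested growth factors 14 were higher (29.2%) and 6 lower (12.5%), beside 13.8% and 18.1% of all genes. Pairing gave 24 and 11, and leaving out replicate 2 gave 21 and 10. The shares of all genes were then 23.5% and 25.7% with pairing, and 24.2% and 25.2% without replicate 2. Fgf1 lay at 5.78, 4.30, 1.95 and 3.56 CPM untreated and at 52.9, 14.8, 38.1 and 51.8 CPM at 20 Gy, a log2 change of 3.34 ± 0.46 (SE; edgeR adjusted p = 0.00143). Angpt2, an antagonist of the vessel-stabilising receptor Tie2, changed by 3.11 ± 0.53 (SE; edgeR adjusted p = 0.00356), the epidermal growth factor relative Ereg by 2.76 and Bmp4 by 2.27. Vegfb and Fgf21 fell by 1.32 and 2.0 on the log2 scale. Of 14 tested genes of the insulin-like growth factor system, 2 were higher and 3 lower, shares near those of all genes (5 and 4 with pairing, 6 and 4 without replicate 2). Igf1 itself lay at 42.7, 60.2, 32.5 and 30.2 CPM untreated and at 15.8, 18.2, 9.61 and 6.86 CPM at 20 Gy, a change of -1.71 ± 0.34 (SE; edgeR adjusted p = 0.00708). In the interferon-stimulated list 5 of 33 tested genes were higher (15.2%, near the share of all genes) and 2 lower. Pairing, or leaving out replicate 2, gave 12 and 3.

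Matrix proteases and their inhibitors leaned higher, with 8 of 20 tested genes higher (40%), 1 lower (5%) and a median of 1.12. Of all genes 13.8% were higher and 18.1% lower. Timp2, an inhibitor of matrix metalloproteinases, lay at 1896, 2718, 1493 and 1166 CPM untreated and at 7497, 7351, 6024 and 4018 CPM at 20 Gy, a log2 change of 1.78 ± 0.30 (SE; edgeR adjusted p = 0.00359). Mmp10 and Mmp9 rose by 3.61 and 1.83, from 0.358 ± 0.281 and 1.12 ± 0.487 CPM (SD, n = 4 each) in untreated libraries. The plasminogen list went the other way, with 3 of 7 tested genes lower (42.9%) and 0 higher, beside 18.1% and 13.8% of all genes. Pairing gave 5 and 0, beside 25.7% and 23.5%. A2m, a broad protease inhibitor, fell by 3.36 and the urokinase receptor gene Plaur by 1.39 on the log2 scale. Among ADAMTS proteases 2 of 20 were higher (10.0%) and 5 lower (25%), beside 13.8% and 18.1% of all genes. Without replicate 2 the counts were 5 and 5, beside 24.2% and 25.2% of all genes. The named members that fell were Adamts9 at -3.02 and Adamts3, a procollagen processing enzyme, at -2.81.

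Named matrix genes moved in both directions. Of 39 tested collagens 12 were higher (30.8%, beside 13.8% of all genes) and 7 lower (17.9%, beside 18.1%), or 14 and 14 with pairing and 16 and 11 without replicate 2. Col1a1 lay at 9533, 8507, 9392 and 10987 CPM untreated and at 5964, 5438, 5172 and 6050 CPM at 20 Gy, a change of -0.76 ± 0.13 (SE; edgeR adjusted p = 0.00412). The type VI chains Col6a3 and Col6a2, which form beaded filaments, fell by 1.90 and 1.61 on the log2 scale. Col24a1 and Col15a1 rose by 2.93 and 1.78. Of 62 tested matrix glycoproteins 10 were higher (16.1%) and 8 lower (12.9%), near the 13.8% and 18.1% of all genes. Their counts were 18 and 15 with pairing and 17 and 13 without replicate 2. Of all genes, 23.5% and 25.7% passed with pairing and 24.2% and 25.2% without replicate 2. Tnn, which encodes tenascin N, fell more than any other gene named by rule. It lay at 660, 230, 811 and 968 CPM untreated and at 7.94, 5.36, 14.1 and 33.9 CPM at 20 Gy, a log2 change of -5.44 ± 0.73 (SE; edgeR adjusted p = 0.00127). Fbln2, fibulin 2 of elastic fibres, fell from 1625 ± 313 to 275 ± 63.3 CPM (SD, n = 4 each), a change of -2.56 ± 0.21 (SE; edgeR adjusted p = 0.000216). Npnt, an integrin ligand, rose by 2.37. Of 31 contractile genes of myofibroblasts, the cells that contract scars, 2 were higher (6.45%) and 5 lower (16.1%), beside 13.8% and 18.1% of all genes. The counts were 7 and 10 with pairing (23.5% and 25.7% of all genes) and 6 and 9 without replicate 2 (24.2% and 25.2% of all genes). Tpm2 rose by 0.80, Smtn fell by 0.72 and Actg2 by 0.92. Actg2 did not pass without untreated replicate 1 or 4 or irradiated replicate 3 or 4 (adjusted p up to 0.0794).

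**Figure D3:**
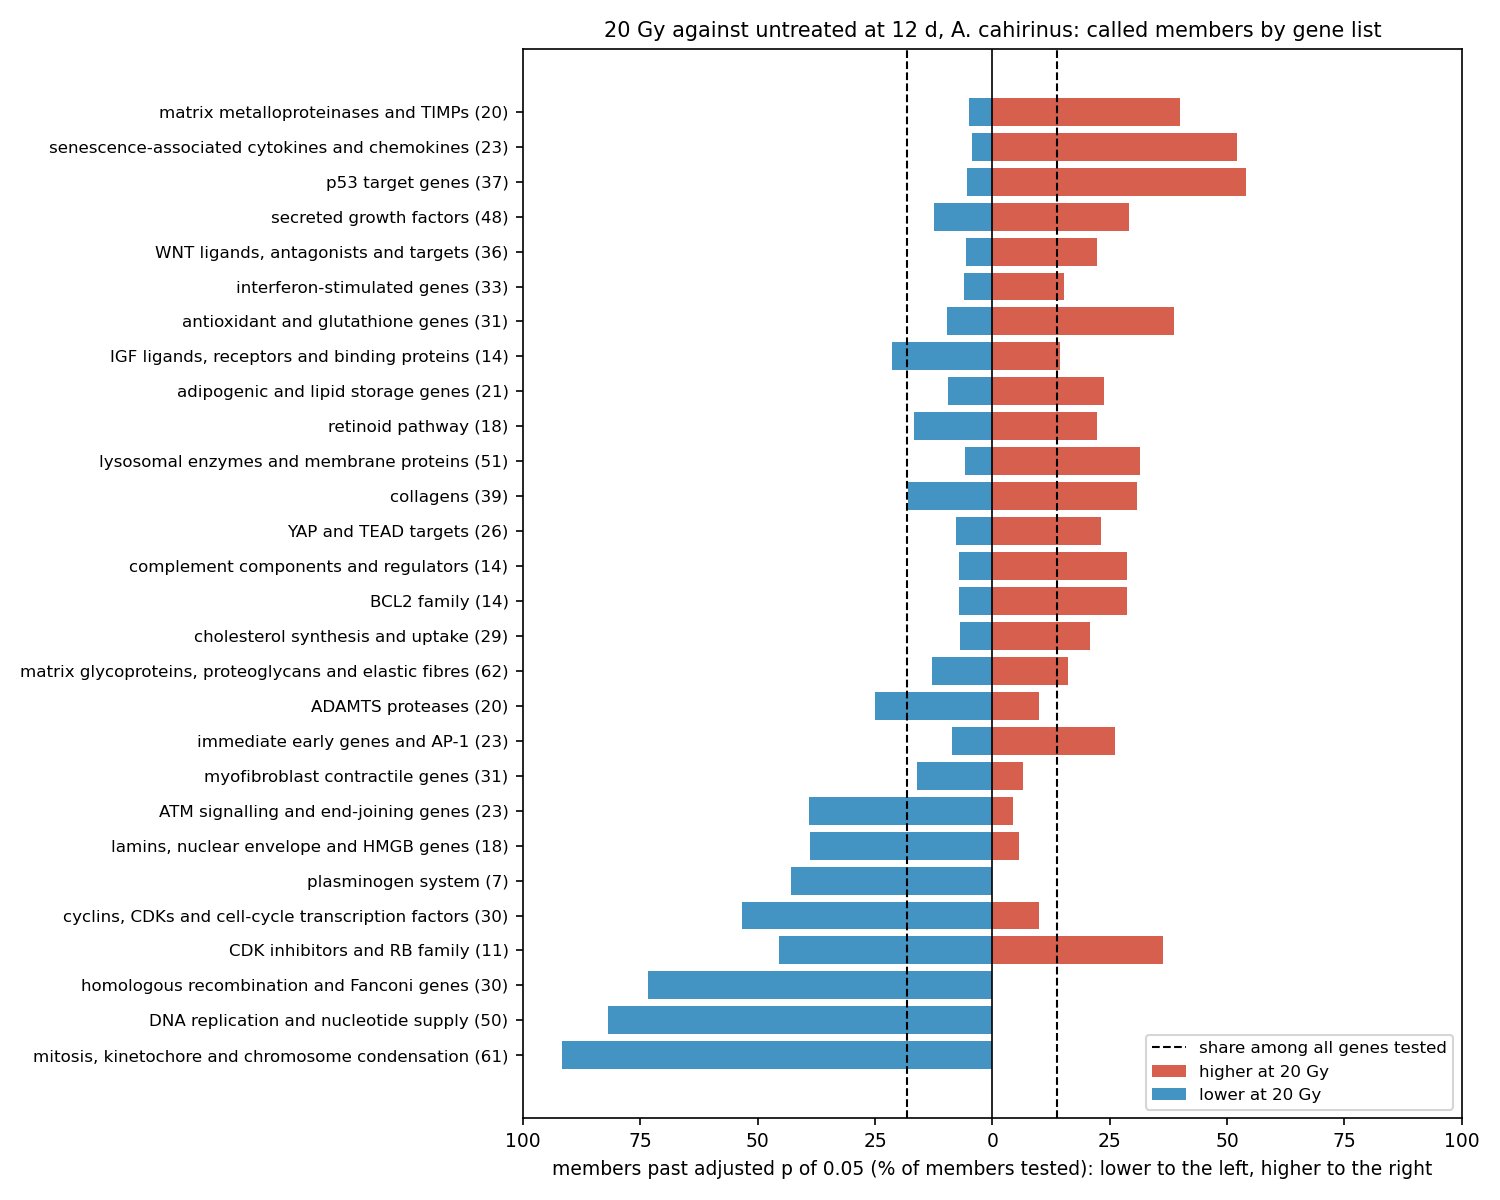
Percent of tested members (x axis) of 28 gene lists (y axis, number tested in parentheses) called higher (right, red) or lower (left, blue) at 20 Gy against untreated in *A. cahirinus* at 12 d; dashed lines are the shares among all genes, 13.8% higher and 18.1% lower. The mitosis, replication and recombination lists, like the plasminogen list, have no member called higher, and p53 targets, cytokines and metalloproteinases have the largest shares called higher.

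The genes that rose most were taken from called genes averaging at least 5 CPM with all 4 pairs in 1 direction. They included Col22a1, Rxrg, Inpp5j, Mss51, Scg2, Ngfr, Myh2, Rtl1 and Lgr6, with log2 changes from 5.87 to 3.48. Several are genes known from muscle. Col22a1, a collagen of muscle and tendon junctions, lay at 0.650, 0.237, 0.314 and 0.204 CPM untreated and at 27.8, 1.44, 40.8 and 11.3 CPM at 20 Gy. Its log2 change was 5.87 ± 1.02 (SE; edgeR adjusted p = 0.00384). Replicate 2 rose by far less than the other 3. Rxrg, a retinoid X receptor, lay at 0.719, 0.326, 0.593 and 0.321 CPM untreated and at 24.6, 1.097, 30.02 and 9.702 CPM at 20 Gy, a change of 5.07 ± 0.95 (SE; edgeR adjusted p = 0.00522). Myh2, the fast 2A myosin heavy chain, lay at 27.1, 10.3, 25.1 and 18.6 CPM untreated and at 333, 21.5, 470 and 353 CPM at 20 Gy. Its irradiated replicate 2, at 21.5 CPM, lay within the untreated range. Mss51, a muscle mitochondrial gene, rose to 13.8, 28.8 and 12.0 CPM in replicates 1, 3 and 4 and stood at 0.815 CPM in replicate 2. The neurotrophin receptor Ngfr and the retrotransposon-derived gene Rtl1 also rose in replicate 2, to 20.1 and 12.7 CPM from 2.05 and 1.66 CPM. In pair 2 the muscle marker sum went from 6598 to 3374 CPM. Col22a1, Rxrg, Myh2, Ngfr and Rtl1 were higher at 20 Gy in that pair, but the rule that picked them required this. The part of muscle RNA in these rises was not tested.

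**Figure D4:**
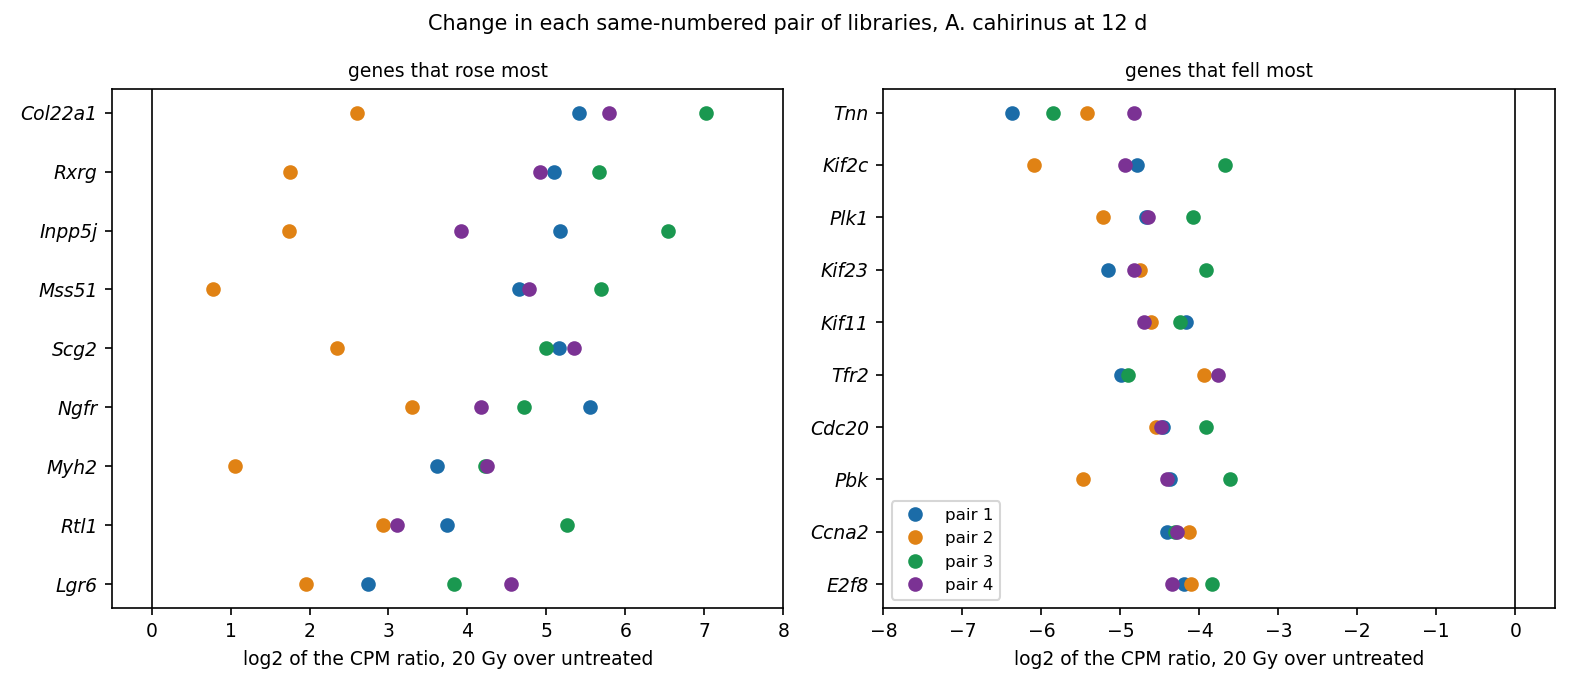
Log2 ratio of CPM at 20 Gy over untreated (x axes) in each same-numbered pair of *A. cahirinus* libraries at 12 d for genes among those that rose most (left) and fell most (right), a point per pair. Every pair moves in the direction of the fit, which the rule that picked these genes required. Among the rises pair 2 has the smallest ratio for every gene drawn, and among the falls the pairs lie closer together.

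In the muscle marker list, 0 of 12 tested genes were higher and 2 lower (16.7%), beside 13.8% and 18.1% of all genes. The 2 were the stem cell factor Pax7 and the early myogenic factor Myf5. Pax7 lay at 67.6, 34.1, 82.0 and 76.2 CPM untreated and at 24.3, 6.86, 22.8 and 35.1 CPM at 20 Gy, a log2 change of -1.54 ± 0.46 (SE; edgeR adjusted p = 0.0341). Myf5 changed by -1.61 ± 0.51 (SE; edgeR adjusted p = 0.043). When 1 library was left out the adjusted p reached 0.0855 for Pax7 and 0.107 for Myf5. With pairing 1 of the 12 was higher and 2 lower. Without replicate 2, 7 of the 12 were higher and the same number, 2, lower, beside 24.2% and 25.2% of all genes. There the adult skeletal actin Acta1 changed by 0.99 (edgeR adjusted p = 0.00024), Myog by 0.57 (adjusted p = 0.000684) and Mymk, needed for myoblast fusion, by 0.97 (adjusted p = 0.000201). In the fit of all 8 libraries these 3 did not pass, at 0.84, 0.40 and 0.82 (adjusted p = 0.189, 0.498 and 0.264). With pairing they did not pass either (edgeR adjusted p = 0.0692, 0.489 and 0.138). Acta1 lay at 4860, 4829 and 5283 CPM in irradiated replicates 1, 3 and 4 and at 1065 CPM in replicate 2. In untreated cultures the corresponding levels were 2668, 2621, 2265 and 1408 CPM. The fast myosin gene Myh4, named after its values were seen, changed by 2.93 ± 0.77 (SE; edgeR adjusted p = 0.0209). Of the other muscle genes looked at in that way, Myh2 and Myl4 passed as well. Myh1, Ttn, Neb, Chrng, Chrnd, Atp2a1, Mybpc1, Myl1, Tnni1, Xirp1, Ryr1 and Cav3 did not (edgeR adjusted p from 0.0522 to 0.749), and Cav3 changed by -0.24. With pairing Myh1, Neb, Mybpc1, Myl1, Xirp1 and Ryr1 passed, and the rest of these did not. Without replicate 2 all of them were higher and passed (edgeR adjusted p up to 0.00371), except Atp2a1 and Cav3 (adjusted p = 0.0944 and 0.339).

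The machinery of protein synthesis was lower. Eef1a1, Col1a1, Eef2, Tubb5 and Rps4x, were the called genes picked for their fall in CPM, a difference that also depends on gene length. Eef1a1, an elongation factor, lay at 8663, 7713, 10031 and 9063 CPM untreated and at 3812, 3677, 3483 and 3907 CPM at 20 Gy, a change of -1.25 ± 0.13 (SE; edgeR adjusted p = 0.000461). Cytosolic ribosomal protein genes, a group examined after these values were seen, had 77 of 81 lower and 0 higher, with a median of -0.97. They took 5.90% to 6.91% of counts in untreated libraries and 2.90% to 3.53% at 20 Gy. With another scaling (RLE) 80 of the 81 stayed below 0, with a median of -0.93. All 5 tested genes of the mitochondrial genome were higher, with a median of 0.93. COX1, a subunit of cytochrome oxidase, lay at 2258, 1567, 2193 and 2331 CPM untreated and at 4402, 3315, 4703 and 3467 CPM at 20 Gy. Genes picked in the same way that rose included Anxa1, an anti-inflammatory annexin, at 1.82 ± 0.36 (SE; edgeR adjusted p = 0.00636), and Col8a1 at 1.72 ± 0.57 (SE; edgeR adjusted p = 0.048). Col8a1 passed with 1 library left out only where that was untreated replicate 2, with an adjusted p of up to 0.131 otherwise. Car3, carbonic anhydrase 3, rose by 1.27 ± 0.31 (SE; edgeR adjusted p = 0.0154), though irradiated replicate 2, at 2402 CPM, lay below the highest untreated library.

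Lysosomal and antioxidant genes leaned higher. Of 51 tested lysosomal genes 16 were higher (31.4%) and 3 lower (5.88%), beside 13.8% and 18.1% of all genes. Lamp1, a lysosomal membrane protein, lay at 502, 590, 426 and 432 CPM untreated and at 1013, 1152, 871 and 895 CPM at 20 Gy, a change of 1.02 ± 0.15 (SE; edgeR adjusted p = 0.00167). Of 31 antioxidant and glutathione genes 12 were higher (38.7%) and 3 lower. Hmox1, heme oxygenase 1, changed by 2.18 ± 0.50 (SE; edgeR adjusted p = 0.0121), and its irradiated libraries, 192 to 454 CPM, all lay above the untreated ones, 31.6 to 128 CPM. Srxn1, which restores peroxiredoxins, changed by 1.33 and Gss, glutathione synthetase, by 1.09. In the retinoid list 4 of 18 tested genes were higher (22.2%) and 3 lower (16.7%). Without replicate 2 the counts were 7 and 6, beside 24.2% and 25.2% of all genes. Aldh1a2, which makes retinoic acid, lay at 0.274, 0.445, 0.244 and 0.263 CPM untreated and at 6.92, 2.91, 5.92 and 6.94 CPM at 20 Gy, a change of 4.19 ± 0.36 (SE; edgeR adjusted p = 0.000254). The receptor genes Rarg and Rara fell by 0.84 and 0.61 on the log2 scale.

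The lists of this paragraph had 20.7% to 28.6% of tested members higher and 5.56% to 9.52% lower, beside 13.8% and 18.1% of all genes. Over all genes these shares were 23.5% and 25.7% with pairing and 24.2% and 25.2% without replicate 2. In the WNT list 8 of 36 tested genes were higher and 2 lower (14 and 7 with pairing, 14 and 5 without replicate 2), with the receptors Fzd5 and Fzd8 at 1.14 and 1.17. Fzd8 did not pass without untreated replicate 1, 3 or 4 or irradiated replicate 3 (adjusted p up to 0.0718). In the YAP and TEAD target list 6 of 26 were higher and 2 lower (12 and 3 with pairing, 13 and 3 without replicate 2). Nt5e, the ectonucleotidase CD73, changed by 1.94 ± 0.26 (SE; edgeR adjusted p = 0.00127) and Ankrd1 by 1.27 ± 0.25 (SE; edgeR adjusted p = 0.00676). In the adipogenic list 5 of 21 were higher and 2 lower (8 and 4 with pairing, 8 and 5 without replicate 2), led among the named genes by Pparg, the adipocyte master regulator, at 2.25. In the cholesterol list 6 of 29 were higher and 2 lower, with the synthesis enzyme Dhcr7 at -1.01. Of 14 complement genes 4 were higher and 1 lower (7 and 3 with pairing), and of 23 immediate early genes 6 and 2 (8 and 6 with pairing). Of 14 BCL2 family genes 4 were higher and 1 lower. The survival gene Bcl2l1 rose by 0.53 and the death gene Bmf fell by 0.99. Bmf passed without either replicate 2 library but not without any other (adjusted p up to 0.1).

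The second comparison set 20 Gy against 10 Gy at 12 d, and shares its irradiated libraries with the first. Only 62 of 13564 genes passed (0.457%), 2 higher and 60 lower at 20 Gy (0.0147% and 0.442%). This count depended on the replicates. With pairing 1121 genes were higher and 1305 lower (8.26% and 9.62%, together 17.9%). Without replicate 2 the counts were 703 and 1282 (5.17% and 9.43%, together 14.6%). The count was 0 when any single library but 10 Gy replicate 2 was left out. Without that library it was 48 higher and 374 lower. At an unadjusted p of 0.05, edgeR gave 1917 genes with all 8 libraries, and DESeq2, run without the expression filter, called 723 after adjustment. Without the filter edgeR called 75. Of the 60 lower genes 37 belonged to the 4 lists of mitosis, replication, recombination and cyclins. The mitosis list had 27 of 61 members lower, with a median log2 difference of -2.21, and without replicate 2 it had 57. The replication list had 5 of 50 lower, and without replicate 2 it had 40. Plk1 lay at 13.4, 5.79, 26.3 and 16.8 CPM at 10 Gy, a log2 difference of -4.31 ± 0.51 (SE; edgeR adjusted p = 0.0372). At 10 Gy its range reached the untreated one, while all 20 Gy libraries were at 1.201 CPM or below. Kif23, Kif11, Cdc20 and Mybl2 had differences of -3.91, -3.96, -3.94 and -3.99 (edgeR adjusted p = 0.0372 each). Lmnb1 lay at 29.02, 14.78, 59.96 and 50.02 CPM at 10 Gy, a difference of -3.0 ± 0.41 (SE; edgeR adjusted p = 0.0372).

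Of 37 p53 targets 0 passed between 20 and 10 Gy, with a median log2 difference of 0.19. With pairing 14 were higher and 1 lower, and without replicate 2, 9 and 1. Cdkn1a lay at 1713, 1606, 1216 and 1237 CPM at 10 Gy, and the 20 Gy value was higher by 0.50 ± 0.18 on the log2 scale (SE; edgeR adjusted p = 0.263, and 0.041 with pairing). Il6 lay at 11.2, 17.9, 6.46 and 6.44 CPM at 10 Gy, a difference of 0.56 ± 0.35 (SE; edgeR adjusted p = 0.52, and 0.0234 with pairing). A test that misses the threshold does not show that the doses act alike. Untreated passaged cultures, not tested here, had higher division levels than plain untreated ones: Mki67 averaged 112 ± 28 CPM (SD, n = 4) there and 58.5 ± 9.35 CPM (SD, n = 4) in the plain untreated libraries, and Cdkn1a 414 ± 41.5 and 799 ± 146 CPM (SD, n = 4 each). In the 24 h cultures, which were normalised separately and belong to another batch in the labels, Cdkn1a averaged 324 ± 57.3 CPM (SD, n = 4) untreated and 786 ± 22.8 CPM at 20 Gy (SD, n = 4), and Plk1 85.7 ± 17.6 and 19.7 ± 9.59 CPM. Tnn stood there at 73.03 ± 15 and 67.5 ± 14.2 CPM.

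The third comparison asked where the change at 20 Gy differed between *A. cahirinus* and house mice, as an interaction over the 18109 gene symbols found once in each table. Each population was counted against its own genome, and in the mice muscle genes were near 0. Against C56BL6 the change differed for 2658 of 14101 genes (18.8%), 1144 higher (8.11%) and 1514 lower (10.7%) in the spiny mouse. With pairing it differed for 5359 (38%), 2477 higher (17.6%) and 2882 lower (20.4%), and without replicate 2 for 3373 (23.7%), 1509 higher (10.6%) and 1864 lower (13.1%). Against wild mice it differed for 465 of 13888 (3.35%), 162 higher (1.17%) and 303 lower (2.18%). With pairing this count was 3242 (23.3%), 1419 higher (10.2%) and 1823 lower (13.1%), and without replicate 2 it was 537 (3.83%), 225 higher (1.61%) and 312 lower (2.23%). It fell to 169, 142 and 129 without untreated *A. cahirinus* replicate 1, 3 or 4, and to 153, 169 and 285 without irradiated replicate 1, 3 or 4. It fell to 196 without untreated wild replicate 1, and to 210 and 175 without irradiated wild replicate 1 or 4. No gene separated wild replicate 1 from wild replicate 4 by presence, that is with at least 10 counts in each library of one number and at most 1 in each of the other. For the other combinations of wild numbers 41 to 98 genes did. The same count was 1 to 21 between C56BL6 numbers and 0 to 2 between *A. cahirinus* numbers, where it was 0 for 3 combinations, so a count of 0 is not particular to the wild mice. Whether these 2 numbers are separate animals was not tested.

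Some division genes had a more negative change in the spiny mouse. In the mitosis list 27 of 62 genes had a more negative change than in C56BL6 and 1 a less negative or more positive one, with a median difference of -1.48. In the replication list the counts were 20 and 0 of 50. Of all genes 10.7% had a lower and 8.11% a higher change than in C56BL6. Against wild mice these shares were 2.18% and 1.17%, and 13.1% and 10.2% with pairing. Against wild mice 10 of 62 mitosis genes and 5 of 50 replication genes were lower and 0 higher, or 6 and 3 lower without replicate 2 and 53 and 35 lower with pairing, which also gave 1 higher mitosis gene. Lmnb1 fell from 13.6 ± 5.50 to 8.41 ± 1.0 CPM (SD, n = 4 each) in C56BL6, a log2 change of -0.71, and the difference between populations was -2.67 ± 0.30 (SE; edgeR adjusted p = 0.000143). Against wild mice it was -2.86 ± 0.32 (SE; edgeR adjusted p = 0.00192). Plk1 differed by -3.34 ± 0.66 (SE; edgeR adjusted p = 0.00363) and -3.95 ± 0.92 (SE; edgeR adjusted p = 0.0352). In untreated C56BL6 cultures Plk1 was at 8.50 ± 6.92 CPM (SD, n = 4), against 18.5 ± 3.02 CPM (SD, n = 4) in the spiny mouse. The tables of the 2 species were scaled separately, so these levels are set side by side without a test.

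Of 38 p53 targets 4 had a higher and 6 a lower change than in C56BL6, beside 8.11% and 10.7% of all genes. Against wild mice the counts were 0 and 2, beside 1.17% and 2.18%. With pairing they were 7 and 12 against C56BL6 and 1 and 13 against wild mice. The difference for Cdkn1a was 0.48 ± 0.26 (SE; edgeR adjusted p = 0.202) against C56BL6 and -0.95 ± 0.40 (SE; edgeR adjusted p = 0.213) against wild mice, and with pairing these passed (adjusted p = 0.0363 and 0.0167). Eda2r rose more than in C56BL6, by 1.2 ± 0.33 (SE; edgeR adjusted p = 0.0206). Cdkn2a did so against both, by 1.24 ± 0.41 (SE; edgeR adjusted p = 0.0462) and 1.48 ± 0.34 (SE; edgeR adjusted p = 0.0337). Its change within the mice was -0.02 in C56BL6 and -0.24 in wild mice. Gdf15 rose by 2.53 in C56BL6, from 1.86 ± 1.43 to 10.9 ± 3.87 CPM (SD, n = 4 each), and the difference of -2.57 ± 0.73 passed (SE; edgeR adjusted p = 0.0256).

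Some genes had fitted changes of opposite sign. Among 159 genes named by the panel or the lists, called in *A. cahirinus* and tested against C56BL6, 82 had a called difference, beside 18.8% of all genes. List genes were picked for large changes in the same *A. cahirinus* libraries, which favours a called difference, so the 2 shares cannot be compared. In 23 of the 82 the C56BL6 change had the opposite sign and a size of at least 0.5 on the log2 scale, 16 higher and 7 lower in the spiny mouse. In 18 of the 23 the wild mouse change had the sign of C56BL6. Neither count was made over all genes. The C56BL6 change itself was not required to pass a test, and some of the 23 had low levels or large errors there. Acan averaged 0.0245 CPM untreated and 0.182 CPM at 20 Gy in C56BL6, and Rxrg 0.132 and 0.0549 CPM. The C56BL6 change was -1.24 ± 0.95 (SE) for Rxrg and -0.72 ± 0.80 (SE) for Timp4. Trp53 rose from 68.5 to 98.1 CPM in C56BL6, by 0.51, and the difference was -1.21 ± 0.14 (SE; edgeR adjusted p = 0.000143), and against wild mice it passed as well (adjusted p = 0.00652). Hmga1 rose by 1.60 in C56BL6 and differed by -3.11 ± 0.46 (SE; edgeR adjusted p = 0.000778), and Plaur rose by 1.36 and differed by -2.77 ± 0.40 (SE; edgeR adjusted p = 0.000608). Angpt2 fell by 2.26 in C56BL6, from 39.5 to 8.31 CPM, and the difference was 5.36 ± 0.63 (SE; edgeR adjusted p = 0.000149). Against wild mice its difference did not pass (adjusted p = 0.33, and 0.000645 with pairing). Col15a1 differed by 3.0 ± 0.44 (SE; edgeR adjusted p = 0.00072) and Fzd5 by 1.82 ± 0.23 (SE; edgeR adjusted p = 0.000244). As examples by list, cholesterol genes had 15 of 30 members with a higher change than in C56BL6 and 0 with a lower one, and matrix glycoproteins 17 and 2 of 66. Of all genes 8.11% had a higher and 10.7% a lower change. Against wild mice the list counts were 1 and 0 of 30, and 2 and 1 of 66, beside 1.17% and 2.18% of all genes.

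**Figure D5:**
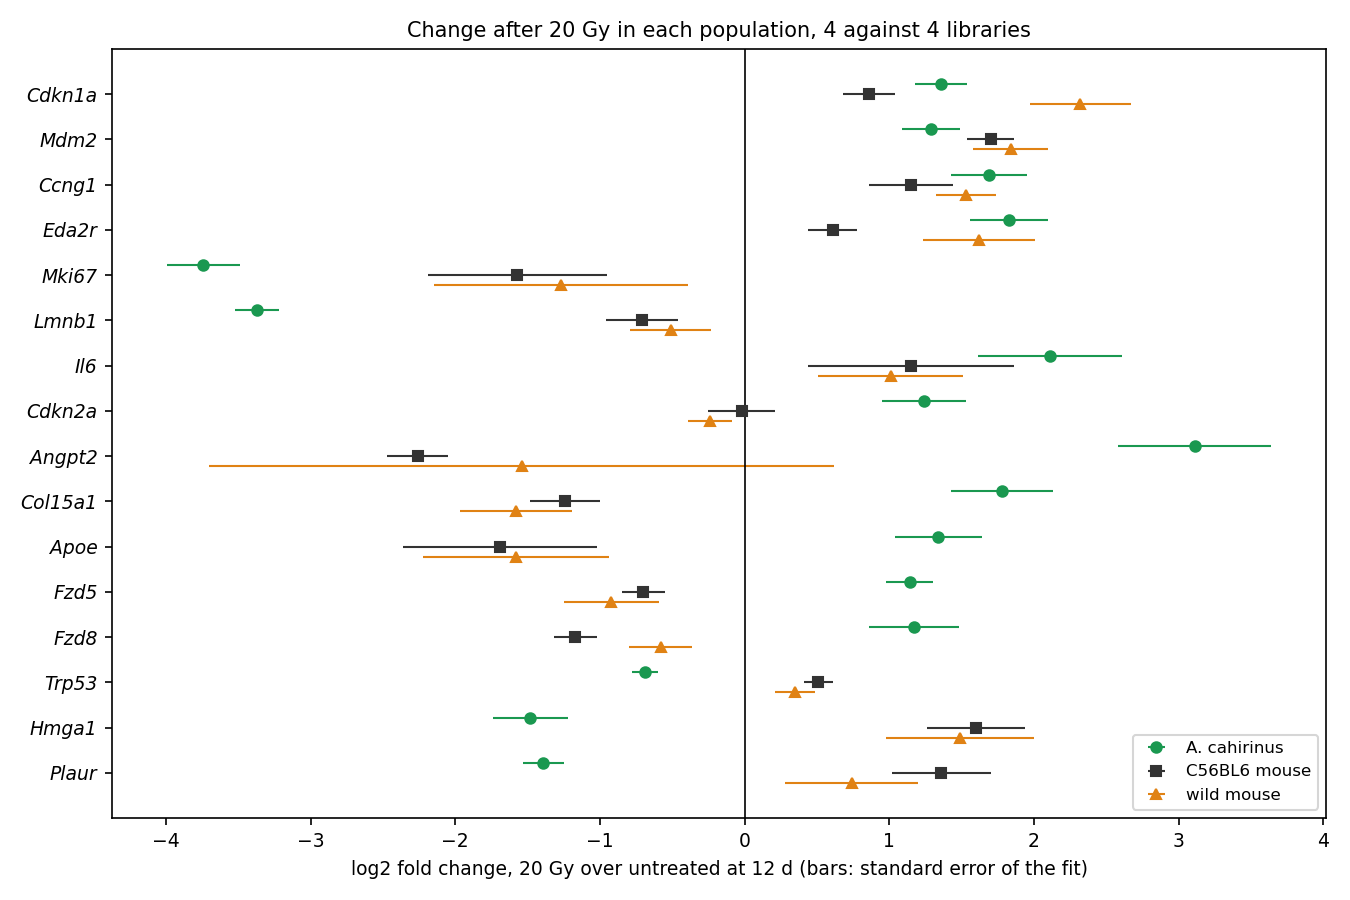
Log2 fold change at 20 Gy over untreated at 12 d (x axis, bars are standard errors of the fit within each population) of the genes on the y axis in *A. cahirinus*, C56BL6 and wild mouse cultures, 4 against 4 libraries each. Mki67 and Lmnb1 lie furthest left in *A. cahirinus*. The genes from Angpt2 downwards were drawn from those selected for opposite signs in *A. cahirinus* and C56BL6.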

How the data were processed

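RNA was measured in 8 *A. cahirinus* libraries at 12 d, with 10 Gy, C56BL6 and wild mouse libraries for comparison. The deposited tables hold raw read counts per gene made with featureCounts 2.0.3, per the file headers. The *A. cahirinus* counts are by gene name on the AcoCah2 assembly and the mouse counts by Ensembl ID. The submitters' processing notes also name Trim Galore and HISAT2, with no role or version. The headers carry no strand option, so antisense or overlapping genes and near-identical copies may share reads. Of 19818 *A. cahirinus* names and 56980 mouse IDs (56236 with a symbol), 18109 symbols occurred once in each table.

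Counts were tested with edgeR 4.0.16 (R 4.3.3; quasi-likelihood test, TMM scaling, filterByExpr, Benjamini-Hochberg over all genes tested, threshold 0.05). SE was the log2 change divided by the square root of F. Population differences were interaction terms. CPM used TMM over the 16 *A. cahirinus* libraries at 12 d, and 24 h libraries were scaled separately. The code was tested on simulated data.

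The members and gene lists were chosen with earlier results of these data known. Named genes were a fixed panel, the 10 largest rises and falls among called genes averaging at least 5 CPM with all 4 pairs in 1 direction, the 5 largest differences in level each way, up to 4 called members a list and direction averaging at least 1 CPM, and the 5 largest differences each way in the other comparisons. Muscle markers and ribosomal and mitochondrial genes were added after their values were seen. A few genes that this rule names are not reported here. Library names give each replicate number 1 code shared by the doses, and libraries with the same number departed from their groups together (correlations 0.45, 0.73, 0.40 and 0.57 over 13462 genes). The numbers were therefore taken as pairs, but only in the fits named as paired or as the replicate block. The main fits had no such term. Alternatives were RLE scaling, no filter, DESeq2 1.42.0, the replicate block, a fit of all 12 d groups and leaving out single libraries. Promoters came from RefSeq (GRCm38.p6), matched by symbol, with the first listed per gene.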

Additional observations from a re-analysis of the deposited data

Results flagged for a closer look

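Among 82 groups of 4 libraries, 6 held a library whose gap to its nearest neighbour was large for the range of its group. Chance alone marks some such groups when this many are examined. In 5 of the 6 the library was replicate 2. Its summed skeletal muscle markers stood at 6598 CPM untreated and 3374 CPM at 20 Gy, its mural cell markers at 858.7 and 621.2 CPM, and its endothelial markers at 266.9 CPM untreated. The sixth was Mki67 in irradiated replicate 3, at 6.605 CPM against 3.35 to 3.87 CPM in the others.

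The change at 20 Gy differed from that in C56BL6 mice for 2658 genes and from that in wild mice for 465, by the interaction term of edgeR. Against C56BL6, the largest lower differences of log2 changes were those of Sv2b (-7.35), Crym (-6.84), Fzd10 (-6.79), Hhatl (-6.25) and Cadm1 (-5.82). The largest higher ones were those of Car3 (7.12), Scg2 (7.07), Il1rn (6.89), Fbn2 (6.32) and Adamts15 (5.94). Car3 averaged 2202 CPM untreated and 5296 CPM at 20 Gy in *A. cahirinus*, and 10.05 and 0.165 CPM in C56BL6. Fbn2, a fibrillin, averaged 0.842 and 4.19 CPM in *A. cahirinus*, and 34.99 and 2.176 CPM in C56BL6. Adamts15, a protease of versican, averaged 3.449 and 7.421 CPM, and 91.9 and 3.217 CPM.

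Against wild mice, the largest lower differences were those of Esrrb (-7.30), Scn4a (-7.09), Fzd10 (-6.60), Slco2b1 (-5.23) and Selplg (-5.13). The largest higher ones were those of Armh4 (9.15), Scg2 (8.61), Adamtsl2 (6.88), Steap4 (6.62) and Fgf18 (5.76). Untreated C56BL6 libraries were all at 0 for Sv2b, Crym and Cadm1, untreated wild libraries for Esrrb, Scn4a, Fzd10 and Selplg, and untreated *A. cahirinus* libraries for Armh4 and Il1rn. Untreated averages of Fzd10 (0.00909 CPM) and Hhatl (0.00885 CPM) in C56BL6, of Slco2b1 (0.0109 CPM) in wild mice, and of Steap4 (0.0222 CPM) and Fgf18 (0.00855 CPM) in *A. cahirinus* lay under the level of 3 counts. All these fitted differences depend on the prior count and are no bounds.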

How the results depend on the processing

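Against untreated, 4287 called genes became 6623 with the replicate block (the pairing) and 6678 without both libraries of replicate 2, an alternative chosen after seeing the data. RLE scaling gave 4222, no filter 4326, DESeq2, which was run without the expression filter, 5409 and a fit of all groups 4735. Leaving out single libraries gave 2983 to 5584. Against 10 Gy, 62 became 75 with no filter, 723 with DESeq2, 2426 with the block, 672 with all groups in 1 fit, 1985 without replicate 2 and 0 to 422 without single libraries. The difference from C56BL6, 2658 genes, became 5359 with the block and 1959 to 3527 without single libraries. That from wild mice, 465 genes, became 1154 with DESeq2, 3242 with the block, 814 with all groups and 129 to 570 without single libraries. The cause of these shifts was not tested.

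Among named genes against untreated, the block kept direction and side of the threshold in 191 and brought 1 past it. RLE scaling took 7 below it, and single libraries left out did so in 186 of the gene and library combinations. Signs changed in genes that had not passed. Gdf15 was 0.01 with RLE scaling and -0.58 to 0.22 over single libraries left out. Cadm1 ranged from -0.31 to 0.03, Hhatl from -0.03 to 0.54 and Selplg from -0.20 to 0.02. DESeq2, over 17274 unfiltered genes, moved the median log2 change of all genes to 0.13, and edgeR without the filter to 0.09. Population differences of panel and list genes were refitted with the block only. A level at 0 cannot be told from one under 3 counts, 0.085 to 0.106 CPM.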
